A study of Mus musculus with 7 samples.

Results

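The interleukin-1 (IL-1) and interleukin-33 (IL-33) family was examined in the hearts of mice with myocardial infarction (MI). The 10 genes were chosen by name from the 56980 genes of the deposited table, with low values kept. They were the ligands Il1a, Il1b, Il33 and Il18, the receptor subunits Il1r1, Il1rap and Il1rl1, and the inhibitors Il1rn, Il1r2 and Il18bp. All 10 were found. RNA of myocardial tissue was sequenced in 7 wild-type (WT) male C57BL/6J mice, a common inbred strain, which were 8 weeks old when obtained. The left coronary artery was ligated in 3 of them (MI mice), whose hearts were collected 4 days later. The other 4 (sham-operated mice) went through the same surgery without the ligation. Each mouse gave 1 library of whole tissue, so a level mixes all the cell types of the heart, and more cells of a type and more RNA per cell cannot be told apart.

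Cytokines of this family are alarm signals of injured tissue. IL-1α and IL-1β bind the receptor IL-1R1, which recruits the accessory protein encoded by Il1rap, and the assembled receptor signals through MyD88 and IRAK kinases to NF-κB. IL-33 is kept in the nucleus of stromal cells, is released when cells are damaged, and binds ST2, the product of Il1rl1, which uses the same accessory protein. A soluble form of ST2 is a circulating marker in heart failure. IL-1β and IL-18 are made as precursors and cut by caspase-1 in the inflammasome. The family is held in check by a receptor antagonist (Il1rn), a decoy receptor without a signalling domain (Il1r2) and a secreted protein that binds IL-18 (Il18bp).

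The sequence before the start site is shown for 4 members that the results turn on, Il1b, Il1rn and Il1r2, which had the largest ratios between the group means, and Il33, which had the highest level in the MI hearts. Each is the 250 bases before the first start site listed by RefSeq on GRCm38.p6, written 5′ to 3′ on the strand of the gene, with matches to the TATA box (TATAAA) or AP-1 motif (TGANTCA) in capitals. They lie at chr2:129371140-129371389 on the minus strand for Il1b and, on the plus strand, at chr2:24336610-24336859 for Il1rn, chr1:40085843-40086092 for Il1r2 and chr19:29924863-29925112 for Il33.
Il1b: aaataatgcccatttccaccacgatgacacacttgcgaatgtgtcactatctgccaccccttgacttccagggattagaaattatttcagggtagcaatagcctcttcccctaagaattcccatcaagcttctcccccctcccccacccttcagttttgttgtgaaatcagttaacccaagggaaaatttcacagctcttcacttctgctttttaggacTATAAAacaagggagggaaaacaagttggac
Il1rn: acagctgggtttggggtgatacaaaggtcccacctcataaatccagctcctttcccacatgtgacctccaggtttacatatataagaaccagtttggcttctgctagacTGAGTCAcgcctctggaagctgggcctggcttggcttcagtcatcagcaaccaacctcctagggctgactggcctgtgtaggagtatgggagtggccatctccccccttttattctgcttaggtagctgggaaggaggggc
Il1r2: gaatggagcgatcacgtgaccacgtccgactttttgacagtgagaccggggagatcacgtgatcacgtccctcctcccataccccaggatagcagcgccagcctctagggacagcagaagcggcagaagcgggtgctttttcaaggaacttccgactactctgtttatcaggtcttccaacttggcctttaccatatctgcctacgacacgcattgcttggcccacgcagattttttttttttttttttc
Il33: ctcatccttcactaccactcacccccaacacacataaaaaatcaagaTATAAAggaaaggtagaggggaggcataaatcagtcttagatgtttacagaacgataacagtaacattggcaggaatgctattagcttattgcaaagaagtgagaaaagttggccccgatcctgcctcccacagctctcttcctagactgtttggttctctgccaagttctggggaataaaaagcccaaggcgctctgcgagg
Il1b and Il33 each hold 1 TATA box and Il1rn holds 1 AP-1 match, while Il1r2 holds neither. RefSeq lists 15 start sites for the 10 members, each with a window of 250 bases before and 50 after the start, and motifs were searched on both strands. The TATA box matched in 6 of these windows, in Il1a, Il1b, Il1rn, Il33 and Il18, against 13.6% of all 32851 windows. The AP-1 motif matched in 2 of them, in Il1a and Il1rn, against 7.81%, and the NF-κB motif in 1, at the second start site of Il1r1, against 8.46%. Several windows belong to the same gene and some of them overlap, so they are not independent, and a match is a string of letters rather than a bound site.

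Most members lie in 3 stretches of the genome. On chromosome 1 (GRCm38, GENCODE M21), Il1r2 (40074079 to 40125231), Il1r1 (40225080 to 40317257) and Il1rl1 (40429570 to 40465415) share a block of 477.6 kb on the plus strand with Il1rl2, Il18r1 and Il18rap, and these 6 are its only protein-coding genes. On chromosome 2, Il1a (129299610 to 129309972) and Il1b (129364570 to 129371139) are neighbours on the minus strand. Il1rn lies apart from them on the same chromosome (24336853 to 24351494), beside the IL-36 genes. Il1rap is on chromosome 16, Il33 on chromosome 19, Il18 on chromosome 9 and Il18bp on chromosome 7. Exons of Il1a, Il1b, Il1rap and Il18bp share 222, 25, 552 and 80 bases with a gene on the opposite strand, and whether the counting used the strand is not given in the sources used here, so a part of their values cannot be assigned for certain.

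Values are FPKM, the fragments counted on a gene relative to its length and to the depth of the library. The libraries held 19977723 to 23473572 fragments in the sham hearts and 21781029 to 23610848 in the MI hearts. Cardiomyocyte markers were abundant in every heart, with a summed level of 14648 to 15711 FPKM over 10 genes in the sham group and 9839 to 14679 in the MI group. MI replicate 2 stood apart from the other MI hearts. Its mitochondrial genes held 28.2% of the fragments, against 13.6% and 14.9% in MI replicates 1 and 3 and 26.8% ± 0.419 (SD, n = 4) in the sham hearts. It was kept, and results are given with and without it. The median of the 11431 genes tested lay 0.21 above the sham level on the log2(FPKM + 1) scale, a shift that scaling each heart to its median removed.

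In the sham hearts every member was low. The order from highest to lowest mean was Il1r1 (1.59 FPKM), Il18bp (1.17), Il33 (0.783), Il1rap (0.325), Il18 (0.269), Il1rl1 (0.155), Il1b (0.108), Il1rn (0.0141), Il1a (0.0113) and Il1r2 (0.00454). Neighbours in this order overlapped over the 4 hearts at 6 of the 9 steps. The steps from Il1r1 to Il18bp, from Il33 to Il1rap and from Il1b to Il1rn were those where they did not. In the MI hearts the order began with Il33 (7.11 FPKM), Il1r1 (6.96) and Il1b (2.46) and ended with Il1a (0.119), and every pair of neighbours overlapped. Summed over the 10 members, the level lay between 4.15 and 4.84 FPKM in the sham group, and it was 38.3, 4.74 and 19.6 FPKM in MI replicates 1, 2 and 3.

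MI replicates 1 and 3 carried nearly all of the difference between the groups. In MI replicate 1, 10 of the 10 members were above the highest sham heart, where 56.7% of the 30504 genes above 0 in any heart were. In MI replicate 3 they were 8 of 10, against 51.5% of all genes, and the 2 others were within the sham range. In MI replicate 2 they were 4 of 10, against 19.3%, with 5 members within the sham range and 1, Il1b, below it.

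**Figure D1:**
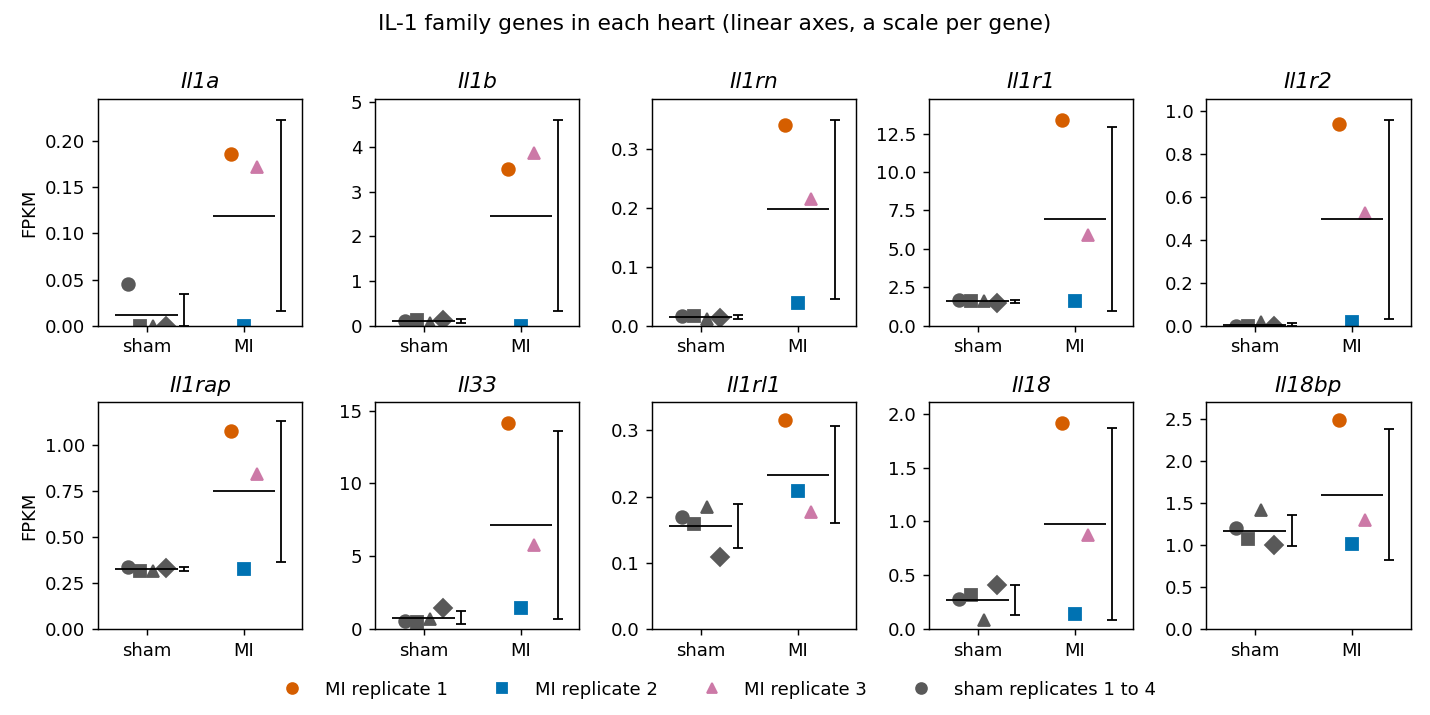
FPKM of each of the 10 IL-1 family genes (linear vertical axis from 0, a scale of its own per gene) in 4 sham and 3 MI hearts. Each point is 1 heart, the horizontal line is the group mean and the bar beside it the SD, drawn no lower than 0. MI replicate 1 is above every sham heart for all 10 genes, and MI replicate 2 (square) lies at or near the sham level for most.

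Il1b, the ligand that inflammasomes activate, was at 0.114, 0.137, 0.0543 and 0.128 FPKM in sham replicates 1 to 4. In the MI hearts it was at 3.51 FPKM in replicate 1, listed at 0 in replicate 2 and at 3.87 FPKM in replicate 3. Replicates 1 and 3 were far above the highest sham heart, and replicate 2 was below all of them, so the groups overlapped. The numbers behind these levels were 3 to 7 fragments per sham heart and 180, 0 and 215 fragments in the MI hearts, and the count of 0 allows a level of up to 0.0563 FPKM (3 fragments). The ratio of the means was 22.7, and the difference did not pass the exact two-sided permutation test (p = 0.286, n = 4 and 3), in which no result can fall below 0.0571.

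Il1a, the ligand that is active without being cut, was barely detected. It was listed at 0.0452 FPKM (2 fragments) in sham replicate 1 and at 0 in the other 3 sham hearts. In the MI hearts it was at 0.186 FPKM in replicate 1, listed at 0 in replicate 2 and at 0.172 FPKM in replicate 3, with 8 fragments in each of the replicates above 0. The groups overlapped at 0. From 16 fragments in the MI hearts against 2 in the sham hearts, the ratio of fragment rates was 10.3 with an exact 95% interval of 2.42 to 92.3, which covers counting error only (permutation test, exact p = 0.286, n = 4 and 3).

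Il33 had the highest mean of all members in the MI hearts. Its values were 0.526, 0.509, 0.689 and 1.41 FPKM in sham replicates 1 to 4 and 14.1, 1.42 and 5.79 FPKM in MI replicates 1 to 3. The groups did not overlap, but MI replicate 2 and sham replicate 4 were nearly level. The level was 9.08 times higher in the MI hearts by the ratio of the means, 7.11 ± 6.46 (SD, n = 3) against 0.783 ± 0.425 FPKM (SD, n = 4), which gave the smallest p that the exact permutation test allows, 0.0571. The fragments numbered 58 to 148 per sham heart and 1618, 169 and 718 in the MI hearts.

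Il18, a ligand made by many resting cells, was at 0.277, 0.315, 0.0795 and 0.405 FPKM in sham replicates 1 to 4 and at 1.91, 0.137 and 0.869 FPKM in MI replicates 1 to 3. The outer MI replicates were above every sham heart, and MI replicate 2 was within their range. The ratio of the means was 3.62, from 3 to 13 fragments per sham heart and 67, 5 and 33 in the MI hearts (permutation test, exact p = 0.229, n = 4 and 3).

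Among the receptors, Il1r1, the signalling receptor of IL-1, was the most abundant and one of the steadiest in the sham hearts. Its values were 1.69, 1.63, 1.61 and 1.45 FPKM in sham replicates 1 to 4 and 13.4, 1.58 and 5.87 FPKM in MI replicates 1 to 3. MI replicate 2 lay inside the narrow sham range and the other MI hearts far above it. The MI hearts were 4.36 times higher by the ratio of the means (permutation test, exact p = 0.229, n = 4 and 3). The fragments numbered 285 to 371 per sham heart and 2868, 352 and 1361 in the MI hearts.

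Il1rap, the accessory chain shared by the receptors of IL-1 and IL-33, was at 0.334, 0.315, 0.317 and 0.332 FPKM in sham replicates 1 to 4, an SD of 0.0101. In MI replicates 1 to 3 it was at 1.08, 0.328 and 0.840 FPKM. The pattern over the hearts was that of Il1r1 at a lower level, with MI replicate 2 again inside the sham range. By the ratio of the means the MI hearts were 2.31 times higher (permutation test, exact p = 0.171, n = 4 and 3).

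Il1rl1, the receptor of IL-33, differed little between the groups. It was at 0.169, 0.158, 0.185 and 0.109 FPKM in sham replicates 1 to 4 and at 0.315, 0.208 and 0.176 FPKM in MI replicates 1 to 3. MI replicate 3 fell among the sham hearts, and here MI replicate 2 was above all of them. The means stood in a ratio of 1.50, with 12 to 24 fragments per sham heart and 38, 26 and 23 in the MI hearts (permutation test, exact p = 0.114, n = 4 and 3).

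Il1rn, which encodes the receptor antagonist, was at 0.0165, 0.0171, 0.0105 and 0.0124 FPKM in sham replicates 1 to 4, on 2 or 3 fragments each. In MI replicates 1 to 3 it was at 0.340, 0.0382 and 0.214 FPKM, on 60, 7 and 41 fragments. The groups did not overlap, and MI replicate 2 was above the sham range as well. The means stood in a ratio of 14.0 (permutation test, exact p = 0.0571, the smallest possible, n = 4 and 3).

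Il1r2, the decoy receptor, was listed at 0 in sham replicates 1, 2 and 4 and at 0.0182 FPKM (1 fragment) in sham replicate 3. It was at 0.940, 0.0188 and 0.524 FPKM in MI replicates 1 to 3, on 48, 1 and 29 fragments. The groups did not overlap, but MI replicate 2 and sham replicate 3 both rested on 1 fragment and were separated only by the depth of their libraries. From 78 fragments against 1, the ratio of fragment rates was 100.4 with an exact 95% interval of 17.5 to 4016 for counting error (permutation test, exact p = 0.0571, n = 4 and 3).

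Il18bp, the binding protein of IL-18, was at 1.20, 1.07, 1.41 and 0.996 FPKM in sham replicates 1 to 4 and at 2.48, 1.01 and 1.30 FPKM in MI replicates 1 to 3. Only MI replicate 1 left the sham range. The ratio of the means was 1.37 (permutation test, exact p = 0.457, n = 4 and 3), and without MI replicate 1 the difference was -0.01 on the log2 scale.

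Across all 10 members, the groups did not overlap for Il1rn, Il1r2 and Il33, with every MI heart higher in each case. Of the 30504 genes above 0 in any heart, 12.0% were separated in this direction. For Il1r2 the gap lay between MI replicate 2 and sham replicate 3, with 1 fragment each, a level that cannot be told from 0. The largest and smallest ratios of the means were those of Il1r2 and Il18bp, and the ratio was above 1 for all 10.

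The model over all genes was fitted with limma on log2(FPKM + 1) to the 11431 genes that reached 1 FPKM in at least 3 hearts. Of the members, 3 entered it and 7 were too low. Il33 entered through 1 sham heart and the 3 MI hearts, so its entry depended on the group where it was high, while Il1r1 reached 1 FPKM in all 7 hearts and Il18bp in 6. None of the 3 passed an adjusted p of 0.05, which 0.0262% of the genes tested did in either direction. Il33 was 1.85 higher in the MI hearts (log2, SE 0.55 in the limma fit, adjusted p = 0.108). Il1r1 was 1.29 higher (SE 0.50, limma adjusted p = 0.114). Il18bp differed by 0.22 (SE 0.19, limma adjusted p = 0.372), close to the shift of the median gene, and by 0.01 after scaling to the median. Il33 and Il1r1 met the second criterion, an unadjusted p under 0.05 with a log2 difference over 0.5, which 17.8% of the genes tested met in this direction. Their unadjusted p also fell under 0.05 after scaling to the median, where the differences were 1.64 and 1.08. Il33 met the second criterion whichever heart was left out, while Il1r1 missed it without any 1 of the 6 hearts other than MI replicate 2.

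All 10 members could be tested without the filter or on the whole fragments recovered from the FPKM steps. Without the filter, none passed an adjusted p of 0.05 (limma, 0.188 to 0.483 over the 10), against 0.0688% of 30504 genes, and 6 had an unadjusted p under 0.05, as did 25.3% of all genes in either direction. With voom weights on the fragments of 21844 genes, none passed an adjusted p of 0.05 (limma, 0.139 to 0.538), against 0.0183% of genes. By the second criterion 4 were higher, Il1rn (log2 difference 3.11), Il33 (2.77), Il1r1 (1.64) and Il1rap (1.04), and 22.1% of all genes were. The fit on fragments was chosen after the data had been seen.

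MI replicate 2 decided these calls. With it left out, Il33 (log2 difference 2.53, limma adjusted p = 0.000461) and Il1r1 (1.94, adjusted p = 0.0005) rose among the filtered genes, and so did 57.0% of all genes tested. On fragments, 8 of the 10 members rose at an adjusted p under 0.05, against 49.9% of all genes. Il1b rose by 5.06 on the log2 scale (limma adjusted p = 3e-05), Il1r2 by 5.78, Il1rn by 4.02, Il33 by 3.65, Il1a by 3.46, Il1r1 by 2.47, Il18 by 2.42 and Il1rap by 1.55. Il1rl1 (0.60, limma adjusted p = 0.137) and Il18bp (0.61, adjusted p = 0.0900) did not pass, and their differences were close to that of the median gene in this fit, 0.60. The comparison without MI replicate 2 rests on 2 MI hearts.

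**Figure D2:**
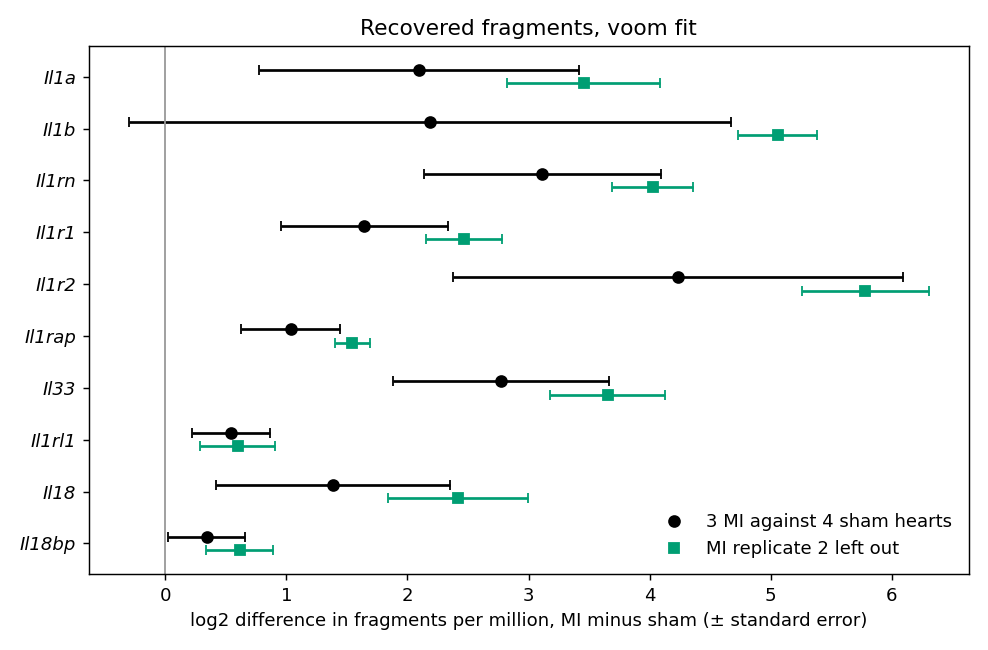
Difference in fragments relative to library depth between MI and sham hearts for each gene (horizontal axis, log2, MI minus sham, points with standard errors), in the voom fit with all 7 hearts (black circles) and without MI replicate 2 (green squares). Every difference is above 0, the standard errors of the circles are widest for Il1b and Il1r2, and leaving out MI replicate 2 moves Il1b furthest to the right and Il1rl1 least.

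The balance between partners was read as the ratio of their FPKM within a heart, which does not depend on how hearts are scaled. The tests were run with 1 added to both values, which does depend on it, and the untransformed ratio is given beside them where both genes were above 0 in every heart. Il1rl1 stood at 0.322, 0.311, 0.268 and 0.0771 of the level of Il33 in sham replicates 1 to 4 and at 0.0223, 0.146 and 0.0304 of it in MI replicates 1 to 3. Il1rl1 was therefore lowest relative to Il33 in MI replicates 1 and 3, and MI replicate 2 overlapped with sham replicate 4. The gene-level value of Il1rl1 does not separate the soluble form of ST2 from the receptor. On the log2(FPKM + 1) scale the difference was -1.75 (permutation test, exact p = 0.114, adjusted p = 0.286 over the 4 ratios tested, n = 4 and 3). Without a pseudocount it was -2.20 with the same exact p. Without MI replicate 2 it was -2.43 with 1 added.

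Il18bp exceeded Il18 in every heart. The ratio was 4.31, 3.40, 17.7 and 2.46 in sham replicates 1 to 4 and 1.30, 7.34 and 1.49 in MI replicates 1 to 3. It was lowest in MI replicates 1 and 3, while the ratio of sham replicate 3 rests on 3 fragments of Il18 (difference -0.32 on the log2(FPKM + 1) scale, permutation test, exact p = 0.229, adjusted p = 0.286, n = 4 and 3). Without a pseudocount it was -1.05 (exact p = 0.400), and without MI replicate 2 it was -0.50 on the shifted scale.

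The antagonist Il1rn stood below Il1b in the 6 hearts where Il1b was detected. In MI replicate 2 Il1b was listed at 0 and Il1rn at 0.0382 FPKM. Il1rn stood at 0.145, 0.124, 0.193 and 0.0968 of Il1b in the sham hearts and at 0.0968 and 0.0554 in MI replicates 1 and 3. With MI replicate 2 included, the difference was -1.11 on the log2(FPKM + 1) scale (permutation test, exact p = 0.286, adjusted p = 0.286, n = 4 and 3). The decoy Il1r2 was listed at 0 in 3 sham hearts and stood at 0.0113 of Il1r1 in sham replicate 3, and at 0.0701, 0.0119 and 0.0892 of it in the MI hearts. Its direction depended on the scale. With 1 added to both FPKM values, the decoy was lower relative to the receptor in the MI hearts (-0.77, permutation test, exact p = 0.229, adjusted p = 0.286, n = 4 and 3), and with 0.1 added it was higher (0.43, exact p = 0.0571), as it was in the unshifted ratios. Without MI replicate 2, the differences with 1 added were -1.75 for Il1rn against Il1b and -1.16 for Il1r2 against Il1r1. The unshifted ratios of Il1r2 to Il1r1 went the other way, higher in MI replicates 1 and 3 than in any sham heart. With 1 added, all 4 ratios then had an exact permutation p of 0.133, the smallest that 2 MI and 4 sham hearts allow.

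**Figure D3:**
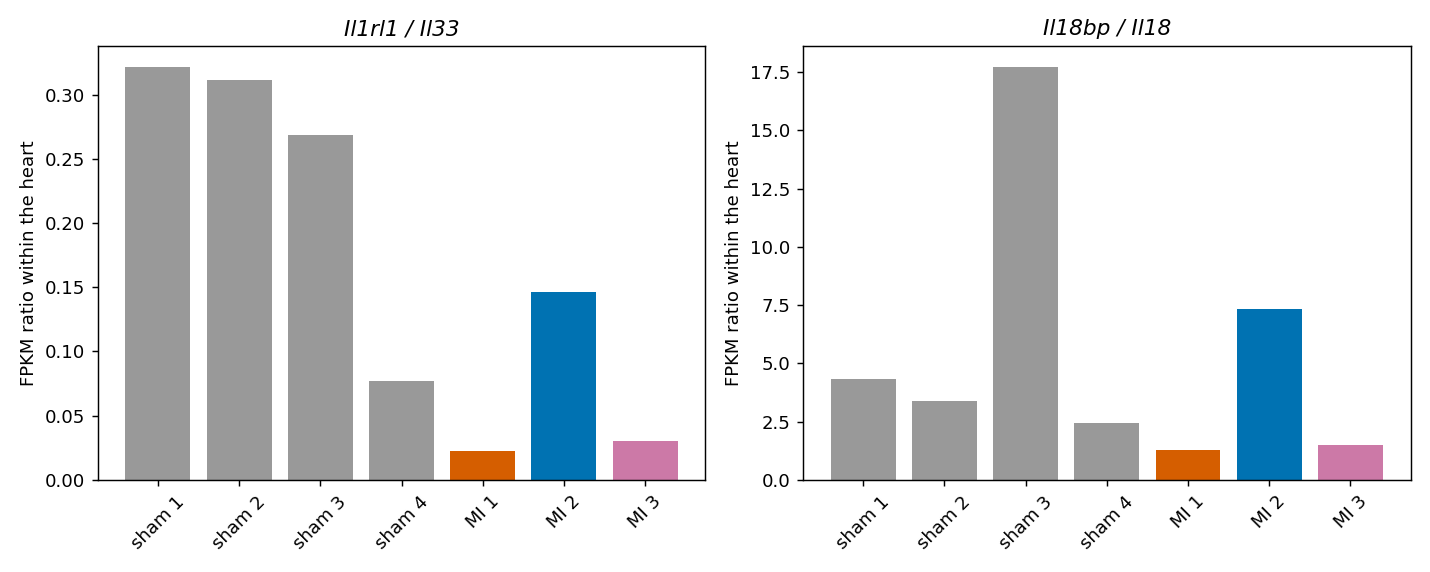
Ratio of FPKM values within each heart (vertical axes from 0, 1 bar per heart, grey for sham and coloured for MI hearts), for Il1rl1 over Il33 (left) and Il18bp over Il18 (right). Both ratios are lowest in MI replicates 1 and 3, and MI replicate 2 lies within the sham range in both.

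The remaining IL-1 family genes were low. The ligands Il36a, Il36b, Il36g, the antagonist Il36rn and Il1f10, which make up the IL-36 and IL-38 branch, were listed at 0 in every sham heart. Il36rn and Il1f10 were listed at 0 in the MI hearts too, and the others reached at most 0.139 FPKM, in MI replicate 1. Il1rl2, the IL-36 receptor, which lies between Il1r1 and Il1rl1 on chromosome 1, was at 0.286 to 0.444 FPKM in the sham hearts and at 2.14, 0.426 and 2.15 FPKM in MI replicates 1 to 3. Both chains of the IL-18 receptor were near the detection limit in the sham hearts. Il18r1 was at 0.0234 to 0.0364 FPKM there and at 0.568, 0.222 and 0.227 FPKM in the MI hearts, without overlap, and Il18rap was at 0.0124 to 0.0286 FPKM and at 0.505, 0.00593 and 0.307 FPKM. In the 6 genes of the receptor block, MI replicate 1 was thus above every sham heart, as it was in 56.7% of the 30504 genes above 0 in any heart. Sigirr, an inhibitory receptor, was the only one of these genes to pass the filter (log2 difference 0.30, limma adjusted p = 0.138). Il1rapl1, at 0.00735 ± 0.0147 FPKM in the sham hearts (SD, n = 4), and Il1rapl2, listed at 0 throughout, showed almost no signal.

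The signalling chain below the receptors was expressed in every heart. All 17 genes of the MyD88 to NF-κB list passed the filter, 5 of them were higher by the second criterion (17.8% of all genes tested), 0 were lower, and 0 passed an adjusted p of 0.05. Of the 5, Irak3 and Irak4 reached 1 FPKM in fewer than 3 sham hearts and so entered with the help of the MI hearts. The 4 largest differences were those of Irak4 (0.73), the kinase nearest to the receptor, the adaptor Myd88 (0.72), and the NF-κB subunits Nfkb1 (0.63) and Nfkb2 (0.60), with limma adjusted p of 0.109 to 0.112. Myd88 was at 2.13 to 2.72 FPKM in the sham hearts and at 7.21, 2.67 and 5.11 FPKM in MI replicates 1 to 3, the order seen for Il1r1. The median difference of the list was 0.27, near that of all genes tested, 0.21. Without MI replicate 2, 11 of the 17 rose at an adjusted p under 0.05, a share not far from the 57.0% of all genes.

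Of 14 genes for processing and release, which include the mast cell proteases Mcpt4 and Cma1, 6 passed the filter, 3 of them were higher by the second criterion (17.8% of all genes tested) and 0 passed an adjusted p of 0.05. Mcpt4, which was not among the 3, entered with the help of the MI hearts. Without the filter the median difference over all 14 was 0.44, beside 0.06 over all genes. The largest difference among the 6 that passed the filter was that of Gsdmd (1.06), the pore-forming protein through which IL-1β leaves cells. Next were Casp8 (0.94), a caspase that can also cut pro-IL-1β, Capn2 (0.69) and Capn1 (0.46, short of the second criterion). Capn2 and Capn1 encode calpains that can cut pro-IL-1α. The limma adjusted p of all these genes was 0.108 to 0.110. Casp1 and Nlrp3, which encode the converting enzyme and a sensor of the inflammasome, were under the filter and are named here after their values were seen. Casp1 was at 0.277 to 0.433 FPKM in the sham hearts and at 1.58, 0.474 and 0.795 FPKM in the MI hearts. Nlrp3 was at 0.0778 to 0.199 FPKM and at 0.838, 0.120 and 0.666 FPKM.

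Of 21 genes that respond to IL-1 in many cell types, 6 passed the filter and 15 did not. Of the 6, 4 were higher by the second criterion (17.8% of all genes tested) and 0 passed an adjusted p of 0.05. Mmp3 entered with the help of the MI hearts. Without the filter the median difference over all 21 was 0.70, beside 0.06 over all genes. The 4 were the adhesion molecules Vcam1 (1.28) and Icam1 (1.06), the protease Mmp3 (1.06) and the RNase gene Zc3h12a (0.70), with limma adjusted p of 0.108 to 0.121. Vcam1 was at 1.28 to 1.69 FPKM in the sham hearts and at 8.93, 1.64 and 7.59 FPKM in the MI hearts. Without MI replicate 2, all 6 rose at an adjusted p under 0.05, as did 57.0% of all genes tested.

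The type 2 response, which IL-33 can drive, was mostly under the filter of 1 FPKM in at least 3 hearts. Of its 10 genes, which include the member Il1rl1, Retnla alone passed the filter. This marker of alternatively activated macrophages was at 3.30, 4.02, 3.78 and 4.66 FPKM in sham replicates 1 to 4 and at 0.136, 2.35 and 2.44 FPKM in MI replicates 1 to 3, lower in every MI heart including replicate 2 (log2 difference -1.06, SE 0.38, limma adjusted p = 0.109). It met the second criterion in the lower direction, as did 4.80% of the genes tested. Without the filter the median difference over the 9 genes of the list above 0 in any heart was 0.09, beside 0.06 over all genes. Il13 was listed at 0 in every heart, and Il4 and Il5 were listed at 0 in every MI heart and reached at most 0.0600 and 0.0870 FPKM in the sham hearts. Arg1 was at 0 to 0.134 FPKM in the sham hearts and at 17.5, 0.185 and 1.31 FPKM in MI replicates 1 to 3. Chil3 was at 0.507 to 0.860 FPKM and at 2.28, 0.490 and 0.776 FPKM. Ccl24 was at 0.563 to 1.07 FPKM and at 2.57, 0.612 and 0.907 FPKM. Gata3 was at 0.0167 to 0.0718 FPKM and at 0.180, 0.0910 and 0.166 FPKM. Areg was listed at 0 in every sham heart and reached at most 0.0756 FPKM. Genes under the filter are named here after their values were seen.

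Markers of several cell types varied over the hearts in the way of the members. The summed level of 10 neutrophil markers lay between 0.355 and 1.33 FPKM in the sham group, and was 18.1, 0.519 and 8.04 FPKM in MI replicates 1 to 3. Of these markers Ly6g was listed at 0 in every heart, and Retnlg, Ngp and Camp in every sham heart. The sum of 10 monocyte and macrophage markers lay between 161 and 208 FPKM in the sham group, and MI replicates 1 to 3 had 1075, 195 and 920 FPKM, and 9 of the 9 tested were higher by the second criterion, against 17.8% of all genes. Fcgr1, 1 of the 9, entered the fit with the help of the MI hearts. The same order over the MI hearts, with replicate 1 highest, replicate 3 next and replicate 2 lowest, held for most members. These were Il1r1, Il1r2, Il1rn, Il1rap, Il33, Il18 and Il18bp. For Il1rn, Il1r2 (on 1 fragment) and Il33, however, replicate 2 was still above the sham range, and for Il18bp replicates 2 and 3 were within it. Il1b and Il1a had replicates 1 and 3 at nearly the same level.

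Lymphocyte markers, which include T, B and natural killer cell genes, summed to 0.882 to 1.05 FPKM in the sham hearts and to 29.6, 1.11 and 6.43 FPKM in the MI hearts. Mast cells carry ST2, and their markers summed to 5.28 to 7.25 FPKM in the sham hearts and to 13.9, 7.21 and 8.93 FPKM in the MI hearts. Of the 10, 2 were tested, Mcpt4 with the help of the MI hearts, and 0 were higher by the second criterion, against 17.8% of all genes tested. The part of these cells in the levels of the members was not tested.

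Stromal cells express Il33, so fibroblast and mesothelial markers are given beside it. Fibroblast markers summed to 160 to 188 FPKM in the sham hearts and to 2706, 287 and 2143 FPKM in the MI hearts, 10 of 10 higher by the second criterion (17.8% of all genes), with none listed at 0 in all sham hearts. Mesothelial and epithelial markers summed to 4.07, 4.91, 7.22 and 9.68 FPKM in sham replicates 1 to 4 and to 40.1, 21.2 and 49.0 FPKM in MI replicates 1 to 3. Of the 6 that were tested, 5 (Msln, Upk1b, Krt19, Krt8 and Krt18) entered the fit with the help of the MI hearts, so no count of calls is given for them. Upk3b, the exception, was 1.65 higher (log2, limma adjusted p = 0.108). Epcam was listed at 0 in every sham heart and Krt5 in every heart. Sham replicate 4, the highest sham heart for Il33, was also the highest for the mesothelial and epithelial markers and the lowest for the fibroblast markers, and MI replicate 2 was above all sham hearts for Il33 and for both lists. The part of these cells in the level of Il33 was not tested. Endothelial markers were near the shift of the median gene (median difference 0.29), and 1 of 10 was higher by the second criterion, against 17.8% of all genes. Of 10 cardiomyocyte markers, 6 were lower by the second criterion, against 4.80% of all genes (median -0.58).

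**Figure D4:**
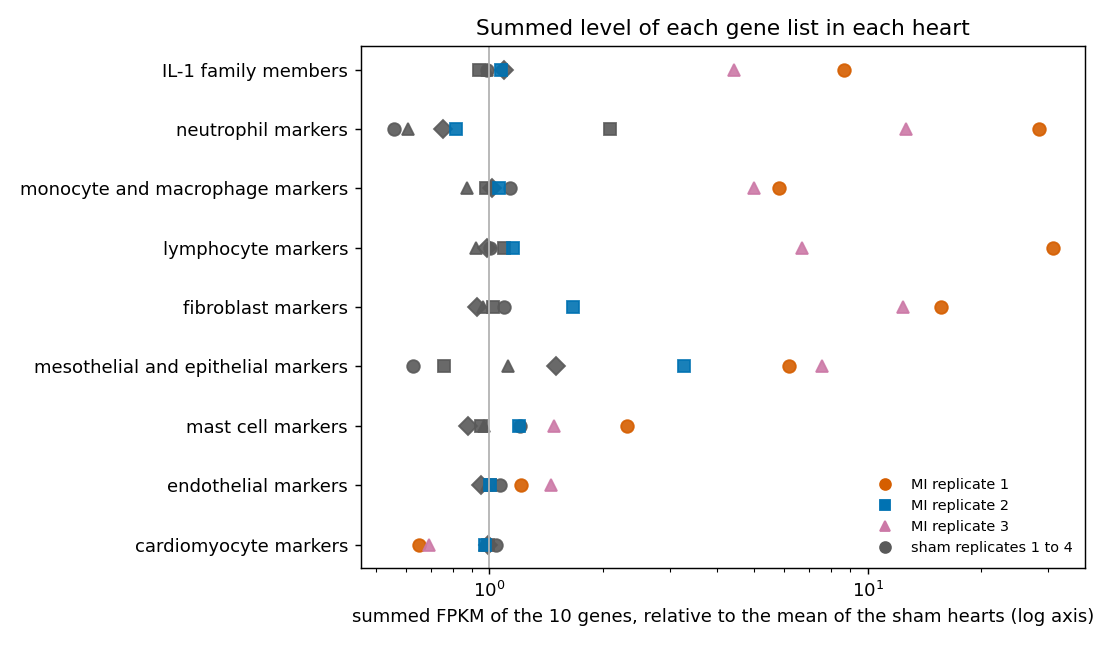
Summed FPKM of 10 IL-1 family genes and of 10 markers of each cell type in every heart, divided by the mean of the sham hearts (horizontal log axis, 1 point per heart). MI replicates 1 and 3 lie to the right for the family, leukocyte, fibroblast and mesothelial lists and to the left for cardiomyocytes, and MI replicate 2 lies near the sham hearts except for fibroblast and mesothelial markers.

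The genes whose pattern over the 7 hearts was most like that of a member were sought for Il33 and its receptor. For Il33 they were Grk6, a kinase of G protein-coupled receptors (Pearson's r = 0.997 on log2(FPKM + 1)), the sialyltransferase St3gal1 (0.996) and the transporter Abcb1b (0.996). For Il1rl1 they were Mettl4 (0.990), Gm4895 (0.973) and Dnajc1 (0.973). For Il33 and the genes like it, MI replicates 1 and 3 lie apart from the rest, and for Il1rl1 and its genes MI replicate 1 alone is far from the sham hearts. These values describe 7 hearts. The ligand and the receptor had no gene in common among these.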

How the data were processed

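Myocardial RNA of 7 mice, 4 sham-operated and 3 MI, was sequenced, with 1 library per mouse. GEO's labels gave the groups. A table of FPKM values for 56980 genes was deposited by the authors. The submitters' processing notes name CASAVA 1.8, HISAT2, SAMtools 1.3.1, edgeR and the build mm10, with no role given. The annotation, the counting program and the strand setting are not given in the sources used here. All value columns were used (0 left unused).

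Of the gene identifiers, 52073 (91.39%) matched GENCODE M21 on GRCm38. Fragment numbers were recovered for 30450 of 30504 genes above 0 by searching the gene length, from 20 to 120000 bases, that brought every heart within 0.05 of a whole number. For Il1a the annotated length was used. The implied lengths differed from the annotated ones for most members (5256 against 2886 bases for Il33), so FPKM levels between genes follow the authors' lengths. Intervals and floors (3 fragments) cover counting error only.

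Values were analysed as log2(FPKM + 1), without rescaling. The 11431 genes that reached 1 FPKM in 3 or more hearts were fitted with limma 3.58.1 under R 4.3.3 (lmFit, then eBayes with trend). The model held the group alone, with Benjamini-Hochberg adjustment over all genes tested at 0.05. A fold on this scale understates the change of low genes. The second criterion was an unadjusted p under 0.05 with an absolute log2 difference over 0.5. Exact two-sided permutation tests used the 35 splits of 7 hearts, where the smallest p is 0.0571. The voom fit used genes with at least 10 fragments. Scripts were tested on simulated data. Other steps used SciPy 1.17.1, NumPy 2.4.6, pandas 2.3.3 and matplotlib 3.10.9 under Python 3.11.15. Members, lists and tests were chosen with earlier results of these data known. All members are named, every other IL-1 family gene, and up to 4 tested genes with the largest difference of each pathway list. Genes that reached 1 FPKM in fewer than 3 sham hearts are said to have entered with the help of the MI hearts and are named for that. Alternatives tried were adding 0.1 in place of 1, dropping the filter or setting it on the mean, TPM, median log-ratio or quantile scaling, limma without the trend, with sample weights or with voom weights, the replicate number as a block, and each heart left out. A further 3, voom without the FPKM filter and 2 settings without MI replicate 2, were chosen after seeing the data.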

Additional observations from a re-analysis of the deposited data

Results flagged for a closer look

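Among 14 sets of values over the 4 sham hearts, 2 had a heart far from the rest, where chance gives 0.7. Both are genes with a single heart above 0, so the gap was 1 of the whole range: Il1a, with sham replicate 1 at 0.0452 FPKM on 2 fragments, and Il1r2, with sham replicate 3 at 0.0182 FPKM on 1 fragment. The MI group, with 3 hearts, is too small for this rule.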

How the results depend on the processing

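The count of members at an adjusted p under 0.05 was 0 with all hearts and 2 with sample weights (66.8% of all genes), but the estimate of these weights did not converge and gave MI replicate 3 nearly all the weight of its group, so these calls carry no support. It was 8 without the filter and without MI replicate 2 (35.8% of all genes), and 8 on fragments without MI replicate 2 (49.9%). Over the filtered fits that leave out 1 heart it ran from 0 to 2, with 2 only without MI replicate 2. The count by the second criterion was 2 with all hearts (17.8% of all genes), 4 without the filter (9.33%), 4 on fragments without the FPKM filter (22.1%), 1 with voom weights on the filtered genes (22.1%), 6 without the filter and MI replicate 2 (19.1%), and 8 on fragments without MI replicate 2 (46.0%). With 1 heart left out of the filtered fit it ran from 1 to 2. Il33 met it in each of these fits, but had entered them with the help of the MI hearts. Over the filtered fits that leave out 1 heart, the difference of Il18bp ran from -0.0105 (without MI replicate 1) to 0.39 (without MI replicate 2), and it reached 0.61 on fragments without MI replicate 2. That of Il1r2 against Il1r1 turned to 0.43 with a pseudocount of 0.1, the direction of the unshifted ratios, and Il1r2 was under 1 FPKM in every heart. The cause was not tested. The differences of the other 9 members kept their direction in every alternative that could give a value. Il33 ranged from 1.21 to 3.65 and Il1r1 from 0.70 to 2.47.

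The replicate numbers did not pair the hearts. The correlations of deviations between hearts of the same number were 0.0739, -0.0163 and -0.0802. With the replicate block, 0 members passed the adjusted p and 2 the second criterion, the Il33 difference was 2.00 and the paired ratio of Il1rl1 to Il33 was -1.93 (exact p = 0.250). It changed no call.

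Depth limits the low members: Il1a, Il1r2, Il1rn and Il1b rest on at most 7 fragments in any sham heart, and a level under 3 fragments cannot be told from 0.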
